A study of Mus musculus with 15 samples.

Results

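Kupffer cells are the macrophages that live in the sinusoids of the liver, and 36 genes that mark them or macrophages in general were followed here through the formation and early regression of MYC-driven liver tumors in mice. The members were taken by symbol from a list, with no threshold on their values. They comprise 5 genes of resident Kupffer cells (Marco, Clec4f, Vsig4, Timd4 and Cd5l) and 31 genes that macrophages and other phagocytes share. All 36 were on the array, 3 of them under older symbols (Lyz2, Spi1 and Hpgds), and Emr1 is now named Adgre1. All 36 also passed the filter on dim probes, among 19328 genes tested. Of the 36 probes that stand for them, 28 were well above background on all 15 arrays and 8 on fewer, the fewest being 8 arrays. No member passed through the regressing tumors alone, since 0 members were well above background on under 3 of the other arrays.

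The study measured RNA of mouse liver and liver tumors on 15 Agilent one-colour arrays. All mice were of the FVB/N strain and carried LAP-tTA, in which a promoter used to direct expression to hepatocytes drives a transactivator that doxycycline blocks. The 3 control livers came from mice with LAP-tTA alone, so they had no MYC transgene. The other mice were LAP-tTA x TRE-MYC double transgenics, in which MYC is made when doxycycline is withdrawn. Until an age above 8 weeks, the animals ate chow holding doxycycline at 200 mg/kg. Pre-tumor liver (4 arrays) was taken 4 to 5 weeks after withdrawal, when no tumor was present. Tumor nodules (4 arrays) were taken 8 to 9 weeks after withdrawal. Regressing tumors (4 arrays) were also taken 8 to 9 weeks after withdrawal, with doxycycline given again for 72 hours before sampling. For the controls the labels do not give the time off doxycycline, and for no group do they say that each array is a separate animal. The p-values therefore measure the spread between these samples, which may in part be technical.

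Kupffer cells settle in the liver before birth, renew themselves there, and take up bacteria, blood cells and cell debris from the portal blood. Their growth depends on the receptor Csf1r and their identity on the transcription factor PU.1, which the gene Spi1 encodes, together with liver-specific regulators. When Kupffer cells are lost, monocytes from the blood can replace them, and such newly arrived macrophages express general macrophage genes before they gain the full set of resident markers. Macrophages clear dying cells through receptors for phosphatidylserine, through bridging proteins that bind the receptors Axl and Mertk, and through complement C1q.

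A level is given below as the log2 of the background-subtracted signal minus the 75th percentile of its array, so a level of 0 equals that percentile. Levels are compared within a gene and never between genes, because probes differ in brightness. Means and summed signals of a gene list are compared between arrays only, and the brightest probes weigh most in a sum. A difference is a difference of 2 group means in log2 units, the value after ± is its standard error (SE) from limma, and p-values were adjusted over all 19328 genes. A gene is called higher or lower, or is said to have risen or fallen, where the adjusted p was under 0.05.

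On each array 43379 gene spots were read, of which between 46.4% (tumor 3) and 90.8% (pre-tumor 4) were well above background, and no spot was saturated. Pearson correlations between arrays of a group, across genes, ran from 0.837 to 0.97. The arrays were on 4 slides, none with over 1 array of a group. At least 4 of the 5 resident genes were well above background on every array, and so were at least 5 of the 6 hepatocyte genes tested.

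No macrophage gene was called before tumors formed, some were called in tumors, and most were higher after 72 hours of regression. In pre-tumor liver against control, 0 of the 36 members were called, as were 0% of all genes higher and 0% lower, and 0 of the 36 had an unadjusted p under 0.05 against 2.64% of all genes. In tumors against control, 12 members were higher (9.38% of all genes were) and 3 were lower (7.01% of all genes). Against pre-tumor liver, tumors had 14 members higher (9.99% of all genes) and 3 lower (9.23%). The counts of lower members were near or below the share of all genes. In regressing tumors against tumors, 27 members were higher and 0 lower, where 8.45% of all genes were higher and 8.35% lower. Of the 36, 0 had an unadjusted p under 0.05 in limma with a lower level in regressing tumors. Against control, regressing tumors had 26 members higher (5.12% of all genes) and 1 lower (3.27%). These comparisons share control or tumor arrays, so they are not independent of each other. In whole tissue, a change in the number of macrophages and a change in RNA per macrophage cannot be told apart, for rises as for falls.

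The median difference of the 36 members was -0.03 in pre-tumor liver against control, 0.48 in tumors against control and 2.03 in regressing tumors against tumors. Over all genes the same medians were -0.03, -0.18 and -0.12. Regressing tumors against control gave a median of 2.65 for the members and of -0.24 for all genes. The count in tumors against control depended on single control arrays, as 7 members instead of 12 were higher without control 1, and 7 without control 2. The 3 lower members became 1 without control 3, and 1 when arrays were centred on their medians. That centring moved the median of all genes in tumors against control from -0.18 to 0.12 and the split of all genes from 1812 higher and 1354 lower to 1897 and 916. For regressing tumors against control it moved the split from 990 higher and 632 lower to 1129 and 425.

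**Figure D1:**
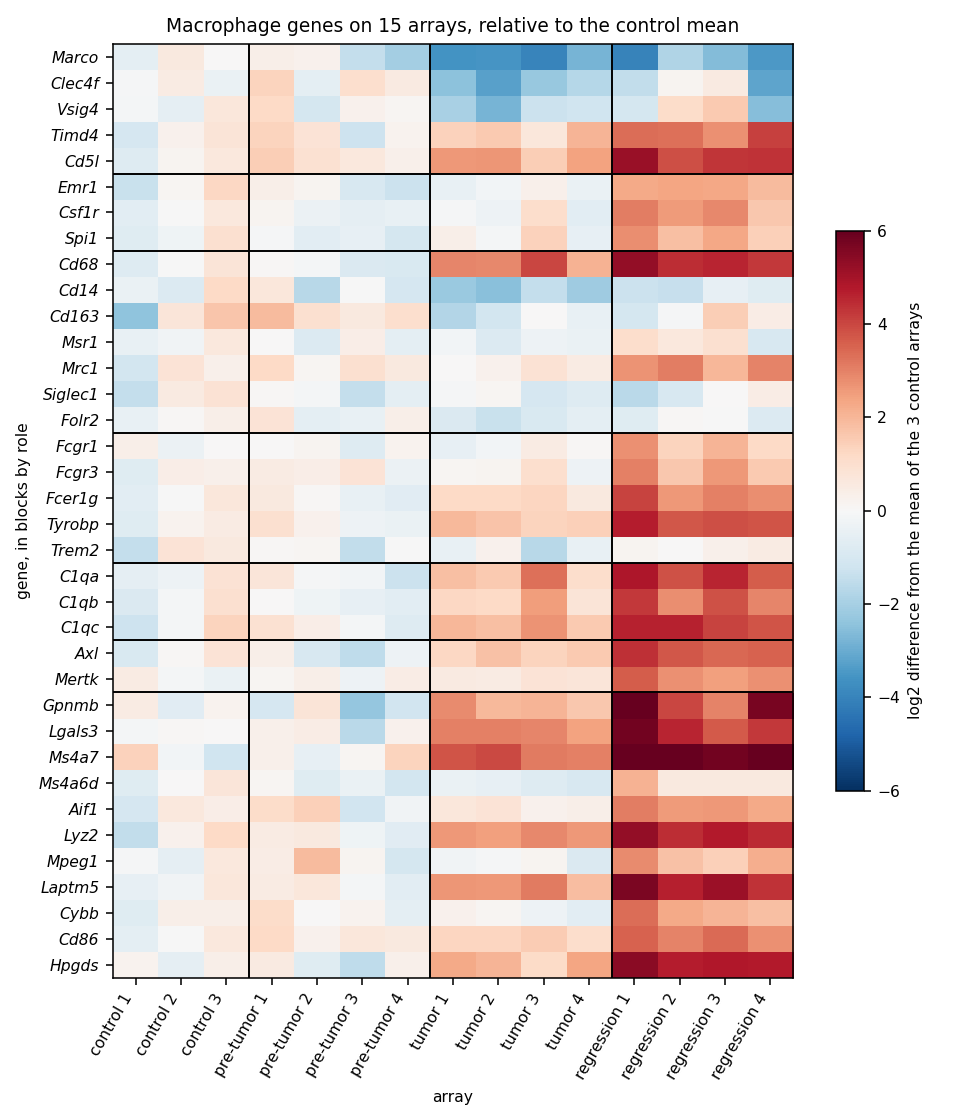
Each row is 1 of the 36 genes, in blocks by role, and each column is 1 of the 15 arrays; colour is the log2 difference of the level from the mean of the 3 control arrays, limited to 6 in either direction. Marco, Clec4f and Vsig4 are below the control mean on all 4 tumor arrays, while most genes of the lower blocks are above it on the 4 regression arrays.

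The 5 resident genes did not move as 1 set. In tumors against control 2 were lower (Marco and Clec4f), 1 was higher (Cd5l) and 2 were not called, with a median difference of -1.79, while of the other 31 members 11 were higher and 1 was lower, with a median of 0.53. Between regressing tumors and tumors, 2 of the 5 resident genes (Timd4 and Cd5l) and 25 of the other 31 were higher. Against control, regressing tumors had 2 of the 5 higher and 1 lower, and 24 of the other 31 higher and 0 lower. Of all genes, 9.38% were higher and 7.01% lower in tumors than in control. In regressing tumors 8.45% were higher than in tumors, and 5.12% were higher and 3.27% lower than in control. The mean level of the 5 minus that of the 31, whose 0 has no meaning of its own, was 1.03 to 1.45 in controls, 1.31 to 1.96 in pre-tumor liver, -0.84 to 0.5 in tumors and -1.56 to 0.1 in regressing tumors. Tumors and controls did not overlap in this value, but they did in each of the 2 means. The mean of the 5 was 0.66 to 1.5 in controls and 0.1 to 0.92 in tumors. That of the 31 was -0.73 to 0.47 in controls and 0.42 to 0.95 in tumors. No test was made of the difference between the 5 and the 31.

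Marco read 3.1, 4.3 and 3.72 on control arrays 1 to 3, 4.04, 3.96, 2.28 and 1.65 on pre-tumor arrays 1 to 4, 0.14, 0.18, -0.24 and 0.94 on tumor arrays 1 to 4, and -0.32, 1.9, 1.1 and 0.26 on regression arrays 1 to 4. Marco is a scavenger receptor that binds bacteria and particles. All 4 tumors and all 4 regressing tumors lay below every control, and pre-tumor arrays 3 and 4 lay below the controls and above the tumors. Marco was 11.0-fold lower in tumors than in controls (-3.45 ± 0.62, adjusted p = 0.000976) and 6.63-fold lower than in pre-tumor liver (-2.73 ± 0.57, adjusted p = 0.00274). Regressing tumors overlapped tumors (0.48 ± 0.57, adjusted p = 0.722, 95% interval -0.74 to 1.7) and were 7.85-fold below control (-2.97 ± 0.62, adjusted p = 0.00606). Marco was the only member called lower in regressing tumors against control. The pre-tumor difference of -0.72 had a 95% interval of -2.04 to 0.59.

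The levels of Clec4f were 2.05, 2.62 and 1.72 in the controls, 3.48, 1.53, 3.13 and 2.66 in pre-tumor liver, -0.32, -1.15, -0.16 and 0.4 in tumors and 0.63, 2.31, 2.68 and -1.04 in regressing tumors. Clec4f is a lectin that in the mouse is made by Kupffer cells almost alone. The 4 tumors lay below every control and pre-tumor array, whereas the regressing tumors were spread, with arrays 2 and 3 within or above the control range and array 4 within the tumor range. Clec4f was 5.41-fold lower in tumors than in controls (-2.44 ± 0.73, adjusted p = 0.0313) and 8.03-fold lower than in pre-tumor liver (-3.01 ± 0.68, adjusted p = 0.00446). The call against control sat close to the threshold and was lost without control 1 (adjusted p = 0.0702), control 2 (0.111), control 3 (0.0588), tumor 1 (0.0669), tumor 2 (0.0912) or tumor 3 (0.051). It was also lost with median centring (0.0506) and with normexp background correction of median spot signals joined to quantile normalization (0.0521), below called normexp with quantile normalization. That correction adds an offset of 50 to every signal, so log2 differences of dim signals come out smaller. The difference of regressing tumors from tumors was not called (1.45 ± 0.68, adjusted p = 0.186), and without regression 4 it was 2.18 with an adjusted p of 0.0176.

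For Vsig4, control levels were 0.49, 0.04 and 1.26, pre-tumor levels 1.77, -0.45, 0.85 and 0.71, tumor levels -1.35, -2.17, -0.67 and -0.6, and regression levels -0.48, 1.69, 2.16 and -1.97. Vsig4 encodes a receptor for complement-coated particles. No tumor overlapped a control, yet the difference did not pass (-1.79 ± 0.81, adjusted p = 0.159, 95% interval -3.52 to -0.07), and it passed when the 2 groups were fitted alone (adjusted p = 0.0438). Regression arrays 2 and 3 were above every control and arrays 1 and 4 below every control. The difference of regressing tumors from tumors was not called (1.55 ± 0.75, adjusted p = 0.209), and without regression 4 the difference was 2.32 with an adjusted p of 0.027. The same arrays were high and low for Clec4f, and the same was true of Marco, for which arrays 2 and 3 were the highest of the 4.

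Timd4 read -3.73, -2.5 and -1.99 on control arrays 1 to 3, -1.39, -1.91, -3.98 and -2.51 on pre-tumor arrays 1 to 4, -1.35, -1.16, -2.04 and -0.7 on tumor arrays 1 to 4, and 0.6, 0.55, 0 and 1.36 on regression arrays 1 to 4. Timd4 is a phosphatidylserine receptor of resident macrophages. Tumors overlapped the controls, and 3 of the 15 arrays (control 1, pre-tumor 3 and tumor 3) were not well above background. All 4 regressing tumors lay above every other array. Timd4 was 3.84-fold higher in regressing tumors than in tumors (1.94 ± 0.53, adjusted p = 0.0193) and 10.3-fold higher than in controls (3.37 ± 0.58, adjusted p = 0.00137). The difference from tumors did not pass without tumor 3 (1.7, adjusted p = 0.0585) or without regression 4 (1.69, adjusted p = 0.0651). The difference from control was 1.05 under normexp with quantile normalization and 1.76 in the authors' deposited table, and it passed in both.

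The levels of Cd5l were 1.4, 2.32 and 2.79 in the controls, 3.64, 3.09, 2.79 and 2.47 in pre-tumor liver, 4.79, 4.81, 3.65 and 4.58 in tumors and 7.37, 6.05, 6.44 and 6.5 in regressing tumors. Cd5l encodes a scavenger receptor family protein that macrophages secrete into the blood. The levels stepped up without overlap from control and pre-tumor liver to tumors and again to regressing tumors. Cd5l was 4.89-fold higher in tumors than in controls (2.29 ± 0.44, adjusted p = 0.00168) and 4.38-fold higher again in regressing tumors than in tumors (2.13 ± 0.41, adjusted p = 0.00196). Regressing tumors were 21.4-fold above control (4.42 ± 0.44, adjusted p = 1.86e-05). Tumors were 2.76-fold above pre-tumor liver (1.46 ± 0.41, adjusted p = 0.018), a call that was lost without pre-tumor 4 (adjusted p = 0.0592), tumor 1 (0.0602) or tumor 2 (0.059).

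**Figure D2:**
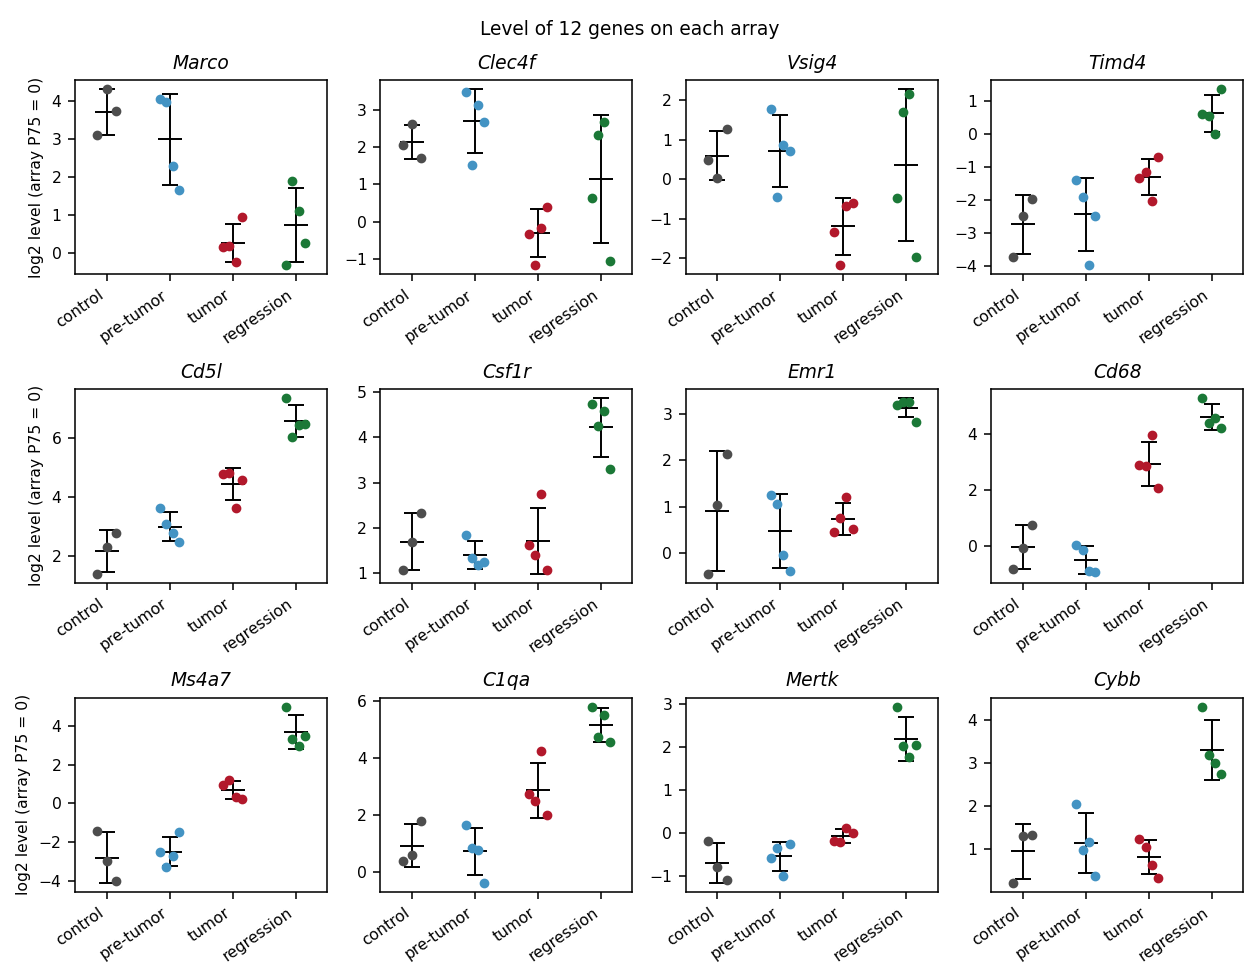
Each panel is 1 of 12 genes; points are the 3 control, 4 pre-tumor, 4 tumor and 4 regression arrays, with the log2 level (0 is the array's 75th percentile) on the vertical axis, and bars show the group mean and SD. Marco, Clec4f and Vsig4 have their lowest group means in tumors, and Clec4f and Vsig4 are most widely spread in regression. Cd5l, Cd68 and Ms4a7 rise from control to tumor and again to regression, and Csf1r, Emr1 and Cybb have their highest means in regression.

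The promoters of the 5 resident genes are shown with that of Cd68, a general macrophage gene whose level rose in tumors, because these genes share the macrophage lineage but moved differently. Each is 300 bases of the mouse reference from RefSeq (build GRCm38.p6), from 250 bases before the gene's start to 50 after it, written 5′ to 3′ on the gene's strand. Capitals mark GAGGAA, the core of the sequence that PU.1 binds, or its reverse complement TTCCTC.
Marco, chr1:120504975-120505274, minus strand: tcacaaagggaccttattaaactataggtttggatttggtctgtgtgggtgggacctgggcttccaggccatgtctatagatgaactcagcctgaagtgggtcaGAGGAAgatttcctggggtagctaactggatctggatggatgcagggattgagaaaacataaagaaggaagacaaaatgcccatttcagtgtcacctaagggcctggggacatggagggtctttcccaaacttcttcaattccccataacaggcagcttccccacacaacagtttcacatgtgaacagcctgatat
Clec4f, chr6:83656067-83656366, minus strand: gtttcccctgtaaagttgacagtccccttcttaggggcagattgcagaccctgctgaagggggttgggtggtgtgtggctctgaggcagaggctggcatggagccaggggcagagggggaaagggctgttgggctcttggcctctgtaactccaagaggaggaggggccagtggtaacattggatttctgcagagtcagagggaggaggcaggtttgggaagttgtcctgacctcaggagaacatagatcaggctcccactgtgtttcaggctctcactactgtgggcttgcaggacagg
Vsig4, chrX:96293389-96293688, minus strand: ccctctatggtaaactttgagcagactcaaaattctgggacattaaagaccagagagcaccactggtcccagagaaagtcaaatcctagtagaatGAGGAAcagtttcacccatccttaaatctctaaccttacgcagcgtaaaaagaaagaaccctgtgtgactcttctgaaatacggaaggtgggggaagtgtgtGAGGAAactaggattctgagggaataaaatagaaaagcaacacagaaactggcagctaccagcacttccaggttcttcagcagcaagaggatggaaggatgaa
Timd4, chr11:46810549-46810848, plus strand: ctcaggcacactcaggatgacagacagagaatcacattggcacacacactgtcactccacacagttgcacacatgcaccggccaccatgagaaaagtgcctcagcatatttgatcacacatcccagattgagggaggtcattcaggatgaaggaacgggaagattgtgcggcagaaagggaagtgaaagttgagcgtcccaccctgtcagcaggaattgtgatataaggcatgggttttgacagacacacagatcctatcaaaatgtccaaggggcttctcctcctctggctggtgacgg
Cd5l, chr3:87357631-87357930, plus strand: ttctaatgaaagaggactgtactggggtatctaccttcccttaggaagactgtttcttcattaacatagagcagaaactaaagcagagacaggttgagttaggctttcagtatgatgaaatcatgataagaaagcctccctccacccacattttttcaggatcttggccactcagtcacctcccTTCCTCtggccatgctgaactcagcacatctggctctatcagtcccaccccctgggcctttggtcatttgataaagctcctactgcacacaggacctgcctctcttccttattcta
Cd68, chr11:69666121-69666420, minus strand: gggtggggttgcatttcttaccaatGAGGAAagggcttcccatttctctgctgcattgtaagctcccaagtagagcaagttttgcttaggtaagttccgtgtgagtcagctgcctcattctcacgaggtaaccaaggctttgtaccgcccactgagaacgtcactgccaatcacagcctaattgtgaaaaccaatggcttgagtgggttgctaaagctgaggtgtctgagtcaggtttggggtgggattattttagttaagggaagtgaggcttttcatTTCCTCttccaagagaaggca
Marco and Cd5l have 1 match each, Vsig4 and Cd68 have 2 each, and Clec4f and Timd4 have none in this window. Marco and Cd5l, which moved in opposite directions in tumors, each hold a match. Of the 36 members 26 have a promoter in the table, and 16 of these (61.5%) hold GAGGAA on either strand, against 31.3% of 27025 genes. A longer form, GAGGAAGT, which contains the core, was found in 2 of 26 (7.7%) against 3.7% of all genes. The sequence CACGTG, the core that MYC binds, was found in 0 of 26 (0%) against 8.1% of all genes. A match in a window is a description of the letters, not of binding.

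Genes of the macrophage lineage itself (Emr1, Csf1r and Spi1) were not called in tumors against control and were higher in regressing tumors than in tumors. For Csf1r, control levels were 1.06, 1.68 and 2.32, pre-tumor levels 1.84, 1.32, 1.17 and 1.24, tumor levels 1.62, 1.39, 2.74 and 1.07, and regression levels 4.75, 4.26, 4.59 and 3.3. Csf1r is the receptor for the growth factors Csf1 and Il34, on which macrophages depend. The tumor arrays overlapped the controls, with tumor 3 the highest, and every regressing tumor lay above all other arrays. The tumor difference from control was 0.02 with a 95% interval of -0.95 to 0.99. Regressing tumors were 5.74-fold above tumors (2.52 ± 0.42, adjusted p = 0.000751) and 5.82-fold above control (2.54 ± 0.46, adjusted p = 0.00193). All 3 Csf1r probes gave the same calls.

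Emr1 read -0.44, 1.04 and 2.14 on control arrays 1 to 3, 1.25, 1.07, -0.04 and -0.37 on pre-tumor arrays 1 to 4, 0.45, 0.76, 1.22 and 0.53 on tumor arrays 1 to 4, and 3.18, 3.26, 3.25 and 2.82 on regression arrays 1 to 4. Emr1 encodes a surface receptor widely used as the mouse macrophage marker. The controls were the most spread, control 1 being the lowest of all 15 arrays, and the 4 regressing tumors were above every other array. Emr1 differed from control by -0.17 in tumors (95% interval -1.29 to 0.95) and was 5.23-fold higher in regressing tumors than in tumors (2.39 ± 0.49, adjusted p = 0.00309). The difference of regressing tumors from control (2.21 ± 0.53, adjusted p = 0.0149) was 1.54 and not called without control 1 (adjusted p = 0.0885). Spi1 followed the same course, between -0.96 and 0.7 in controls, -0.75 and 1.13 in tumors and 1.19 and 2.54 in regressing tumors. It was higher in regressing tumors than in tumors (1.81 ± 0.46, adjusted p = 0.0124) and than in control (2.09 ± 0.5, adjusted p = 0.0149), the second call being lost without control 1 (adjusted p = 0.0857), control 2 (0.0569) or regression 1 (0.0532).

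Scavenger and pattern receptors bind debris, lipids and microbes at the cell surface or in lysosomes. Of the 7, in tumors against control 1 was higher (Cd68) and 1 lower (Cd14), where 9.38% and 7.01% of all genes were. In regressing tumors against tumors 2 were higher (Cd68 and Mrc1), where 8.45% of all genes were. The other 5 were not called there, and the median difference of the 7 was 1.03. The levels of Cd68 were -0.79, -0.04 and 0.75 in the controls, 0.05, -0.13, -0.88 and -0.92 in pre-tumor liver, 2.88, 2.84, 3.96 and 2.06 in tumors and 5.27, 4.38, 4.55 and 4.2 in regressing tumors. Cd68 is a glycoprotein of macrophage lysosomes. The tumors all lay above the controls and the regressing tumors above the tumors, without overlap. Cd68 was 7.79-fold higher in tumors than in control (2.96 ± 0.48, adjusted p = 0.000389), 10.6-fold higher than in pre-tumor liver (3.41 ± 0.44, adjusted p = 4.02e-05) and 3.17-fold higher again in regressing tumors (1.66 ± 0.44, adjusted p = 0.0158). The last call was lost without tumor 4 (1.37, adjusted p = 0.0554) or regression 1 (1.44, adjusted p = 0.053).

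For Mrc1, control levels were -4.73, -2.8 and -3.29, pre-tumor levels -2.42, -3.49, -2.66 and -3.01, tumor levels -3.57, -3.33, -2.75 and -3.1, and regression levels -0.93, -0.53, -1.62 and -0.65. Mrc1 is the mannose receptor. Only the regressing tumors were well above background throughout, and they lay above every other array, 7 of the other 11 not being well above background. Mrc1 was 4.77-fold higher in regressing tumors than in tumors (2.25 ± 0.42, adjusted p = 0.00152). This difference was 0.4 under normexp with quantile normalization and 0.87 in the authors' deposited table, and it passed in both. Cd14, a co-receptor for bacterial lipopolysaccharide, ran from 0.32 to 2.3 in controls, from -1.4 to -0.3 in tumors and from -0.24 to 0.64 in regressing tumors. Its fall in tumors (-2.09 ± 0.56, adjusted p = 0.0161) was lost without control 3 (-1.5, adjusted p = 0.107) and with median centring (-1.79, adjusted p = 0.0518). Against pre-tumor liver Cd14 was also lower in tumors (-1.59 ± 0.51, adjusted p = 0.0407), a call that was lost without pre-tumor 1 (adjusted p = 0.149), pre-tumor 3 (0.0919), tumor 1 (0.0974), tumor 2 (0.113), tumor 4 (0.0682), regression 2 (0.051) or regression 4 (0.0506).

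The remaining 4 receptors were not called in any comparison: Cd163, which takes up haemoglobin, Msr1, a scavenger receptor for modified lipoproteins, Siglec1, which binds sialic acid, and Folr2, a folate receptor. Between regressing tumors and tumors their differences were 1.03 (95% interval -0.53 to 2.59), 0.84 (-0.11 to 1.79), -0.1 (-1.27 to 1.07) and 0.55 (-0.23 to 1.34). The probe mattered for Siglec1 and Msr1. A second Siglec1 probe was higher in regressing tumors than in tumors (1.49, adjusted p over probes = 0.0207) and than in control (1.66, 0.0316). Of the other Msr1 probes 1 was higher in regressing tumors than in tumors (1.77, 0.0163) and lower in tumors than in pre-tumor liver (-1.49, 0.0357).

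Fc receptors bind antibody-coated targets and signal, like many immune receptors, through adaptors with ITAM motifs. Of the 5 members in this role, 1 was higher in tumors than in control (Tyrobp), where 9.38% of all genes were. In regressing tumors against tumors 4 were higher (8.45% of all genes), with a median difference of 1.95. Tyrobp read 1.41, 2.35 and 2.64 on control arrays 1 to 3, 3.11, 2.41, 1.83 and 1.73 on pre-tumor arrays 1 to 4, 4.08, 3.86, 3.46 and 3.55 on tumor arrays 1 to 4, and 6.85, 5.88, 6.02 and 5.93 on regression arrays 1 to 4. Tyrobp is an ITAM adaptor that pairs with several myeloid receptors. Its levels rose in 2 steps with no overlap, from control to tumor and from tumor to regressing tumor, regression 1 being the highest. The step into tumors was 3.03-fold (1.6 ± 0.41, adjusted p = 0.0133), and 1.24 and not called without control 1 (adjusted p = 0.0784). The step into regression was 5.39-fold (2.43 ± 0.38, adjusted p = 0.000496).

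The levels of Fcer1g were 0.91, 1.5 and 2.22 in the controls, 2.13, 1.6, 1.08 and 0.87 in pre-tumor liver, 2.76, 2.74, 2.81 and 2.15 in tumors and 5.61, 4.15, 4.56 and 4.33 in regressing tumors. Fcer1g is the signalling chain that several Fc receptors share. Tumors overlapped the controls through control 3, and the difference from control did not pass (1.08 ± 0.43, adjusted p = 0.11). Tumors were higher than pre-tumor liver only narrowly (1.2 ± 0.4, adjusted p = 0.0477), and the call was lost without any 1 of control 2, pre-tumor 2, 3 or 4, tumor 1, 2 or 3, or regression 2, 3 or 4 (adjusted p from 0.0546 to 0.141). Regressing tumors were 4.13-fold above tumors (2.04 ± 0.4, adjusted p = 0.00232) and lay above every other array.

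For Fcgr1, control levels were -0.63, -1.33 and -0.97, pre-tumor levels -0.97, -0.79, -1.73 and -0.76, tumor levels -1.46, -1.14, -0.5 and -0.89, and regression levels 1.77, 0.37, 1.04 and 0.24. Fcgr1 is the high-affinity receptor for immunoglobulin G. Controls, pre-tumor liver and tumors covered the same range, and the tumor difference from control was -0.02 (95% interval -0.89 to 0.85). Regressing tumors were 3.61-fold above tumors (1.85 ± 0.38, adjusted p = 0.00314). Fcgr3, a lower-affinity receptor, did likewise, from 0.01 to 1.16 in controls, 0.45 to 1.73 in tumors and 2.31 to 3.74 in regressing tumors (1.95 ± 0.42, adjusted p = 0.00449 against tumors). Trem2, a receptor for lipids and lipoproteins that signals through Tyrobp, was not called by the probe that stands for it (0.82 ± 0.52, adjusted p = 0.384 in regressing tumors against tumors). A second Trem2 probe was higher there (2.24, adjusted p over probes = 0.0039) and in regressing tumors against control (2.68, 0.00316).

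C1qa, C1qb and C1qc encode the 3 chains of C1q, which tags dying cells and starts the classical complement pathway, and which macrophages make. C1qa read 0.39, 0.61 and 1.8 on control arrays 1 to 3, 1.64, 0.86, 0.79 and -0.37 on pre-tumor arrays 1 to 4, 2.74, 2.5, 4.24 and 2.01 on tumor arrays 1 to 4, and 5.8, 4.74, 5.51 and 4.56 on regression arrays 1 to 4. The levels of C1qb were 0.75, 1.5 and 2.55 in the controls, 1.63, 1.36, 1.09 and 0.97 in pre-tumor liver, 2.86, 2.81, 4.09 and 2.37 in tumors and 5.86, 4.37, 5.43 and 4.52 in regressing tumors. For C1qc, control levels were -0.36, 0.77 and 2.21, pre-tumor levels 1.78, 1.26, 0.75 and 0.12, tumor levels 2.85, 2.68, 3.55 and 2.44, and regression levels 5.47, 5.49, 4.93 and 4.65. Tumor 3, the array with the lowest share of spots well above background (46.4%), was the highest tumor for all 3 genes. Each regressing tumor was above each tumor. Tumors and controls did not overlap for C1qa and C1qc, and control 3 overlapped the tumors for C1qb.

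Against control, tumors were 3.84-fold higher for C1qa (1.94 ± 0.57, adjusted p = 0.028) and 4.02-fold higher for C1qc (2.01 ± 0.54, adjusted p = 0.0163), while C1qb was not called (1.43 ± 0.5, adjusted p = 0.0649). The C1qa call was lost without control 1 (1.67, adjusted p = 0.111), control 2 (0.0977), tumor 1 (0.0551) or tumor 3 (1.49, 0.0736), and the C1qc call without control 1 (1.39, 0.101) or control 2 (0.0551). In tumors against pre-tumor liver all 3 chains were higher, by between 1.77 and 2.14, and none passed without the 2 arrays of highest and lowest share of spots above background (adjusted p from 0.0733 to 0.11). In regressing tumors against tumors the 3 rose by 2.28 ± 0.53 (C1qa), 2.01 ± 0.46 (C1qb) and 2.25 ± 0.5 (C1qc), with adjusted p-values of 0.00701, 0.0069 and 0.00508. Against control the rises came to 18.7-fold, 10.9-fold and 19.2-fold.

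Axl and Mertk are TAM receptors, kinases that bind dying cells through the bridging proteins Gas6 and Pros1. Mertk read -0.2, -0.8 and -1.11 on control arrays 1 to 3, -0.58, -0.36, -1.01 and -0.25 on pre-tumor arrays 1 to 4, -0.18, -0.22, 0.11 and 0 on tumor arrays 1 to 4, and 2.94, 2.03, 1.77 and 2.04 on regression arrays 1 to 4. Regressing tumors were above all other arrays, and tumors overlapped the controls. Mertk was 4.81-fold higher in regressing tumors than in tumors (2.27 ± 0.32, adjusted p = 0.000239), and its tumor difference from control was not called (0.63 ± 0.35, adjusted p = 0.254). The levels of Axl were -4.35, -3.35 and -2.59 in the controls, -3.08, -4.39, -4.97 and -3.74 in pre-tumor liver, -2.18, -1.66, -2.08 and -1.88 in tumors and 0.95, 0.29, 0.01 and 0.11 in regressing tumors. Axl was not well above background on any control array, and was on 1 of 4 pre-tumor arrays, on 3 of 4 tumors and on all regressing tumors. Regressing tumors were at least 9.2-fold above control (adjusted p = 0.000117) and 4.9-fold above tumors (2.29 ± 0.43, adjusted p = 0.00182). These bounds set the mean of the brighter group against the lowest signal that was well above background on each dim array. Tumors were at least 1.88-fold above control (adjusted p = 0.0413), a call that was lost without any 1 of control 1, control 2, the 4 tumors, or regression 2, 3 or 4 (adjusted p from 0.0513 to 0.2). Under normexp with quantile normalization the Axl differences were 0.17 in tumors against control, which did not pass, and 0.78 in regressing tumors against tumors, which did.

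By the probe that stands for each, the 11 phagocyte effector and membrane genes were all higher in regressing tumors than in tumors, with a median difference of 2.28. Of them 10 were higher than in control. In tumors 6 of the 11 were already higher than in control (Lgals3, Ms4a7, Lyz2, Laptm5, Cd86 and Hpgds). Of all genes, 8.45% were higher in regressing tumors than in tumors, 5.12% than in control, and 9.38% in tumors than in control. For Laptm5, control levels were 0.04, 0.33 and 1.22, pre-tumor levels 1.03, 1.22, 0.41 and -0.11, tumor levels 3.2, 3.13, 3.65 and 2.37, and regression levels 6.2, 5.18, 5.64 and 4.88. Laptm5 is a lysosomal membrane protein of blood cells. The groups separated fully, tumors above controls and regressing tumors above tumors. Laptm5 was 5.88-fold higher in tumors than in control (2.56 ± 0.45, adjusted p = 0.000796) and 5.22-fold higher in regressing tumors than in tumors (2.38 ± 0.41, adjusted p = 0.000997). Its total rise from control to regression was 30.7-fold, with the lowest adjusted p of any member (1e-05).

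Ms4a7 read -1.42, -2.98 and -4 on control arrays 1 to 3, -2.51, -3.3, -2.7 and -1.46 on pre-tumor arrays 1 to 4, 0.96, 1.18, 0.34 and 0.21 on tumor arrays 1 to 4, and 4.97, 3.32, 2.98 and 3.46 on regression arrays 1 to 4. Ms4a7 is a membrane protein that macrophages express, and resting Kupffer cells little. On this scale its differences were the largest of the 36 members in the following 3 comparisons, with tumors 11.1-fold above control (3.47 ± 0.61, adjusted p = 0.000775), regressing tumors 8.07-fold above tumors (3.01 ± 0.56, adjusted p = 0.00161), and 89.3-fold above control (6.48 ± 0.61, adjusted p = 1.15e-05). Levels in control and pre-tumor liver overlapped, and control 3 and pre-tumor 3 were not well above background. A second probe gave 4.04 and 7 for tumors and regressing tumors against control. Under normexp with quantile normalization these 2 differences were 1.03 and 3.46, and both passed.

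The levels of Lyz2 were 0.24, 1.97 and 2.88 in the controls, 2.21, 2.26, 1.44 and 1 in pre-tumor liver, 4.32, 4.17, 4.58 and 4.29 in tumors and 6.97, 6.11, 6.44 and 6.18 in regressing tumors. Lyz2 is the lysozyme of macrophages and neutrophils. Both steps were free of overlap, and the 4 tumors lay close together. Lyz2 was 6.25-fold higher in tumors than in control (2.64 ± 0.51, adjusted p = 0.00169) and 4.25-fold higher in regressing tumors than in tumors (2.09 ± 0.47, adjusted p = 0.00598). Its dimmer probe had a tumor difference of 1.43, which did not pass (adjusted p over probes = 0.136).

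For Lgals3, control levels were -0.38, -0.17 and -0.21, pre-tumor levels 0.04, 0.19, -1.88 and 0, tumor levels 2.78, 2.76, 2.69 and 2.17, and regression levels 5.54, 4.32, 3.44 and 4. Lgals3 is galectin-3, a lectin made by macrophages and by other cells. Tumors lay above all control and pre-tumor arrays, and regressing tumors above all tumors. Lgals3 was 7.24-fold higher in tumors than in control (2.86 ± 0.52, adjusted p = 0.00106) and 3.3-fold higher in regressing tumors than in tumors (1.72 ± 0.48, adjusted p = 0.0209). The second step did not pass without tumor 4 (1.58, adjusted p = 0.0594) or regression 1 (1.32, adjusted p = 0.07).

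Gpnmb read -2.21, -3.37 and -2.5 on control arrays 1 to 3, -3.71, -1.93, -5.01 and -3.83 on pre-tumor arrays 1 to 4, 0.13, -0.74, -0.66 and -1.08 on tumor arrays 1 to 4, and 4.07, 1.32, 0.28 and 2.99 on regression arrays 1 to 4. Gpnmb is a glycoprotein of macrophages that take up lipid or debris. Its regressing tumors were the most spread, and regression 1 and 4, the arrays lowest for Vsig4, were the highest for Gpnmb. Regressing tumors were 6.74-fold above tumors (2.75 ± 0.73, adjusted p = 0.0158), which did not pass without regression 1 (2.12, adjusted p = 0.0531) or regression 4 (2.48, adjusted p = 0.0516). Tumors and controls did not overlap, but their difference did not pass (2.1 ± 0.79, adjusted p = 0.0853), with 1 of 3 controls well above background, and the difference from pre-tumor liver (3.03 ± 0.73, adjusted p = 0.007) was 0.56 (adjusted p = 0.482) under normexp with quantile normalization and 1.19 (0.142) in the authors' deposited table, and called in neither.

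The levels of Hpgds were -3.17, -3.92 and -3.04 in the controls, -2.82, -4.08, -4.88 and -3.08 in pre-tumor liver, -1.08, -1.36, -2.24 and -1 in tumors and 2.03, 1.33, 1.43 and 1.36 in regressing tumors. Hpgds makes prostaglandin D2 in blood-derived cells. It was not well above background on any control, and was on 3 of 4 tumors and on all regressing tumors, which lay above every other array. Tumors were at least 2.71-fold above control (adjusted p = 0.00926, and 0.0539 without control 2), and regressing tumors at least 21.1-fold (adjusted p = 1.34e-05). Regressing tumors were 7.77-fold above tumors (2.96 ± 0.44, adjusted p = 0.000338).

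For Cd86, control levels were -3.79, -3.24 and -2.59, pre-tumor levels -2.01, -2.96, -2.53 and -2.63, tumor levels -1.92, -1.91, -1.7 and -2.17, and regression levels 0.35, -0.21, 0.17 and -0.47. Cd86 is a costimulatory ligand for T cells. It too was below this limit on all 3 controls, and regressing tumors were at least 6.98-fold above them (adjusted p = 5.36e-05) and 3.7-fold above tumors (1.89 ± 0.33, adjusted p = 0.000987). Tumors were at least 1.89-fold above control (adjusted p = 0.0202), not called without control 1 (adjusted p = 0.108) or control 2 (0.0612). A second Cd86 probe gave -1.37 in tumors and -0.27 in regressing tumors against control, neither of them called, so the direction of Cd86 against control depends on the probe. In regressing tumors against tumors that probe gave 1.1, which was not called (adjusted p = 0.413 in limma with the dimmest passing probe of every gene).

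Cybb read 0.22, 1.31 and 1.32 on control arrays 1 to 3, 2.05, 0.99, 1.16 and 0.38 on pre-tumor arrays 1 to 4, 1.23, 1.05, 0.64 and 0.34 on tumor arrays 1 to 4, and 4.31, 3.2, 3 and 2.74 on regression arrays 1 to 4. Cybb is the catalytic subunit of the phagocyte oxidase. Tumors lay within the range of controls and pre-tumor liver, and the difference from control was -0.13 (95% interval -1.12 to 0.86). Regressing tumors were 5.65-fold above tumors (2.5 ± 0.43, adjusted p = 0.000946). The other 3 genes of this role were likewise not called in tumors against control and were higher in regressing tumors than in tumors. They are Aif1, a calcium-binding protein of the macrophage cytoskeleton (2.09 ± 0.51, adjusted p = 0.0101), Mpeg1, a pore-forming protein that kills bacteria (2.28 ± 0.52, adjusted p = 0.00647), and Ms4a6d, a membrane protein related to Ms4a7 (1.62 ± 0.42, adjusted p = 0.0131). Against control Ms4a6d did not pass (0.95 ± 0.45, adjusted p = 0.205), and the Mpeg1 rise (2.04 ± 0.56, adjusted p = 0.0348) did not without control 1 (adjusted p = 0.1), control 2 (0.114), or regression 1 (0.107), 2 (0.0596) or 4 (0.0667).

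**Figure D3:**
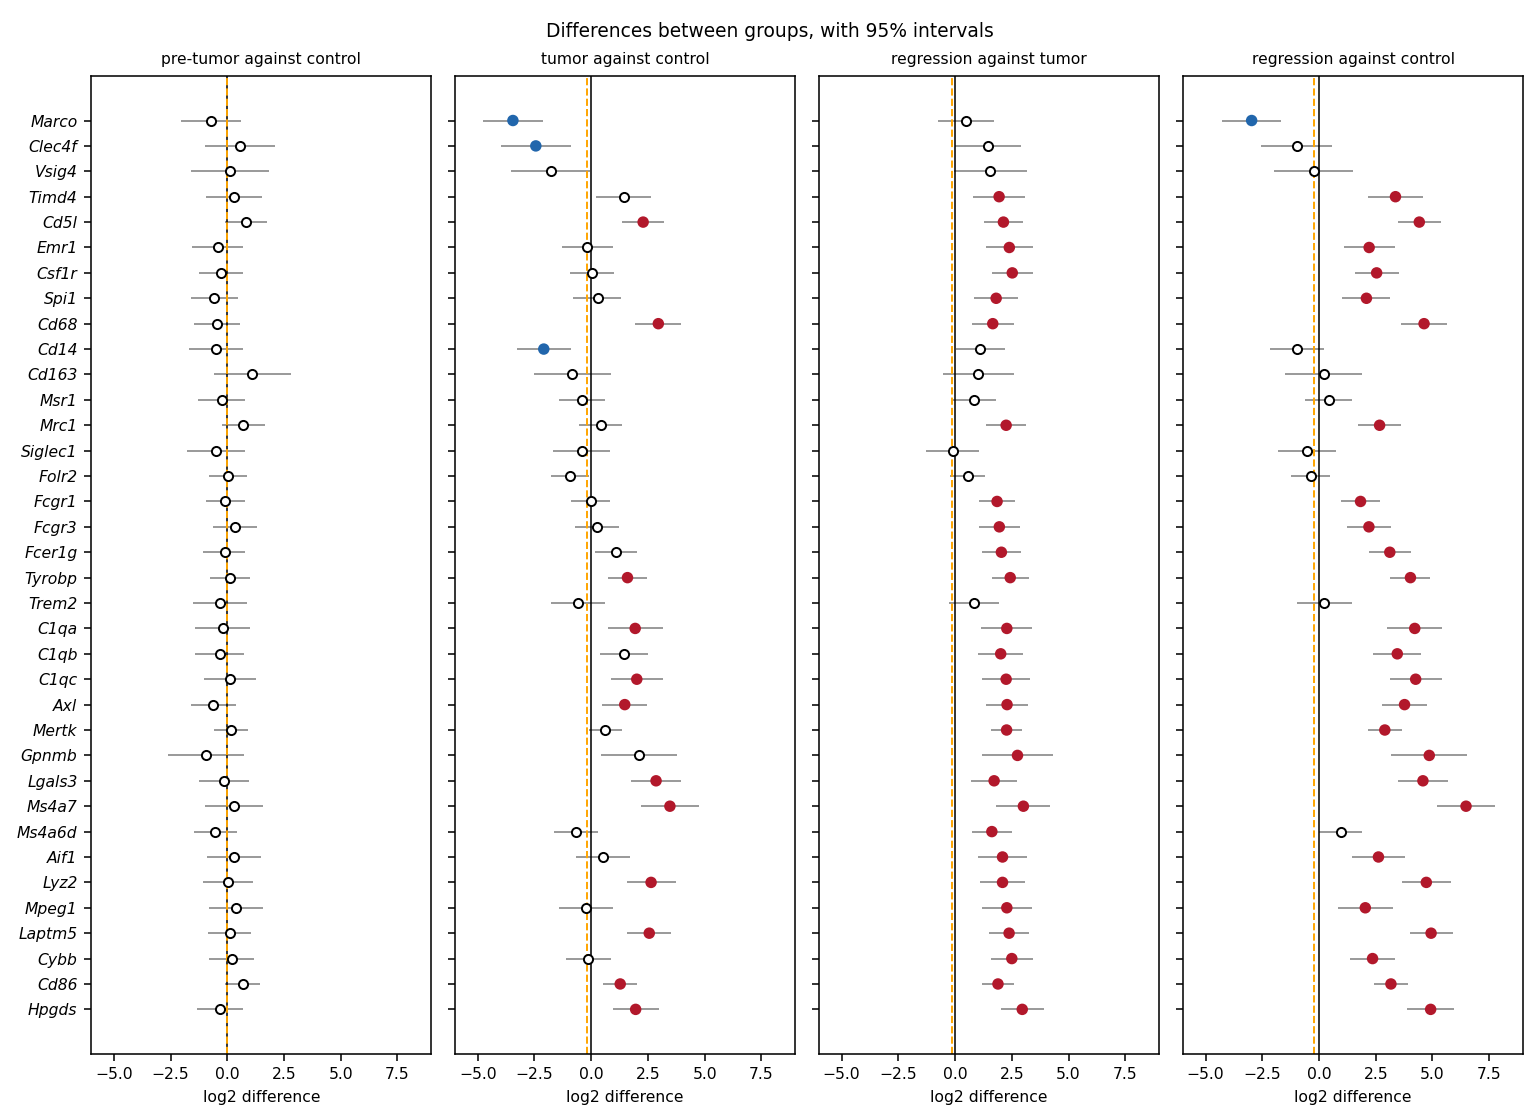
Log2 differences of the 36 genes in 4 comparisons; points are estimates, grey lines 95% intervals from limma, red and blue points genes called higher and lower, open points genes not called, and the dashed line the median of all genes. No point is filled in pre-tumor liver against control, 12 are red and 3 blue in tumors against control, 27 are red in regression against tumor, and 26 are red with Marco alone in blue in regression against control.

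Groups did not overlap in regressing tumors against tumors for 28 of the 36 members, all higher, where 10.9% of all genes were higher without overlap. In tumors against control 13 members were higher without overlap (13.7% of all genes) and 5 lower (11.9% of all genes). Against control, regressing tumors held 26 members higher without overlap (10.3% of all genes) and 1 lower (14.9%). Array by array, the median shift of the 31 other members from the control mean was 0.49 to 1.05 in the 4 tumors and 2.61 to 3.36 in the 4 regressing tumors, and -0.57 to 0.47 in pre-tumor liver. Over all genes this shift was between -0.44 and 0.13 on every array. The controls themselves ran from -0.71 (control 1) to 0.64 (control 3). Comparisons within a slide gave medians of the 36 members of 1.33, 1.79, 2.26 and 2.69 in regressing tumors against tumors. In tumors against control these medians were 0.11, 1.68 and 0.12, with negative differences for 18, 7 and 18 of the 36. For the 5 resident genes in tumors against control, the 3 slides that held both groups gave -2.87, -1.16 and -0.64. With slide as a block, 8 members were higher in tumors than in control, and the calls of C1qa (adjusted p = 0.0854), C1qc (0.0571), Axl (0.0606) and Cd86 (0.0562) were lost. Between regressing tumors and control 23 were higher, and those of Emr1 (0.0617), Spi1 (0.0574) and Mpeg1 (0.061) were lost. In tumors against pre-tumor liver the calls of Cd14 (0.0891) and Fcer1g (0.0852) were lost.

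Other genes of the same pathways were counted from lists chosen with earlier results of these data known. Of 14 macrophage growth factors and Kupffer cell regulators, 0 were higher and 2 lower in tumors than in control, where 9.38% and 7.01% of all genes were. At an unadjusted p under 0.05 in limma 1 was higher and 4 were lower. In regressing tumors against tumors 6 were higher (8.45% of all genes). The 6 were led by Irf8 (2.62 ± 0.41, adjusted p = 0.000515), Zeb2 (2.43 ± 0.45, 0.00164) and Tfec (2.23 ± 0.47, 0.00356), which are transcription factors of myeloid cells. The 2 lower in tumors were Id3 (-1.89 ± 0.42, 0.00459) and Nr1h3 (-1.16 ± 0.36, 0.0357), the first a regulator of Kupffer cell identity and the second a sterol sensor that Kupffer cells need. Which cells of the tissue these falls came from was not tested. Csf1, a ligand of Csf1r, was not called in tumors against control. It was not well above background on any tumor, and pre-tumor liver was at least 6.87-fold above tumors (adjusted p = 0.00341). Against pre-tumor liver, tumors had 1 of the 14 genes higher and 3 lower, where 9.99% and 9.23% of all genes were.

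Most partners of C1q were lower in tumors, where no C1q chain was, and they were higher in regressing tumors than in tumors, as the chains were. No test of the difference was made. All 5 (C1ra, C1s1, C2, C4b and Serping1, proteases, substrate and inhibitor of the pathway, which hepatocytes make in large part) were lower in tumors than in pre-tumor liver, 4 of 5 were lower than in control, and 5 of 5 were higher in regressing tumors than in tumors. Over all genes these shares were 9.23%, 7.01% and 8.45%. C4b was -3.12 ± 0.42 against control in tumors (adjusted p = 7.67e-05) and Serping1 -3.77 ± 0.53 (0.000103). In the same comparison the C1q chains had differences of 1.43 to 2.01. Between regressing tumors and control 0 of the 5 partners were called by limma, and 1 was lower at an unadjusted p under 0.05.

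Of 12 genes of engulfment and lipid handling, 4 were lower in tumors than in control (7.01% of all genes were). In regressing tumors against tumors 10 were higher (8.45% of all genes). The TAM ligands Gas6 (-2 ± 0.4, adjusted p = 0.00219) and Pros1 (-2.09 ± 0.45, 0.00408) were among the 4 lower in tumors, as was Apoe (-2.4 ± 0.45, 0.00124). The cells from which these falls came were not tested either. The rises in regressing tumors were led by Stab1, a scavenger receptor (2.37 ± 0.32, 0.000159), Lpl, a lipase (2.43 ± 0.38, 0.000424), and Abca1, a lipid exporter (2.24 ± 0.4, 0.00122). Of 13 tested genes of Fc and ITAM signalling, 2 were higher and 2 lower in tumors than in control (9.38% and 7.01% of all genes), and 8 were higher in regressing tumors than in tumors. Clec7a, a receptor for fungal glucan, rose in tumors (3.51 ± 0.58, 0.000489), and Fcgr2b, the inhibitory Fc receptor, fell (-2.11 ± 0.4, 0.00172), with 1 of 3 controls and 1 of 4 tumors, respectively, well above background.

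Of 5 further phagocyte oxidase genes 1 was higher in tumors than in control and 3 in regressing tumors than in tumors (9.38% and 8.45% of all genes). The first was Cyba, the partner of Cybb in the oxidase membrane complex, which other cell types also express (4.34 ± 0.47, adjusted p = 8.46e-06). In regressing tumors Cyba was not called against tumors (0.31), while Ncf4, a cytosolic subunit, was higher (1.81 ± 0.34, 0.00158). Of 5 iron-handling genes 1 was higher and 2 were lower in tumors than in control (9.38% and 7.01% of all genes). The 1 higher was Slc11a1, a phagosomal metal transporter (1.93 ± 0.48, 0.0109). In regressing tumors against tumors 2 of the 5 were higher (8.45% of all genes), among them Slc11a1 (1.69 ± 0.45, 0.0156).

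**Figure D4:**
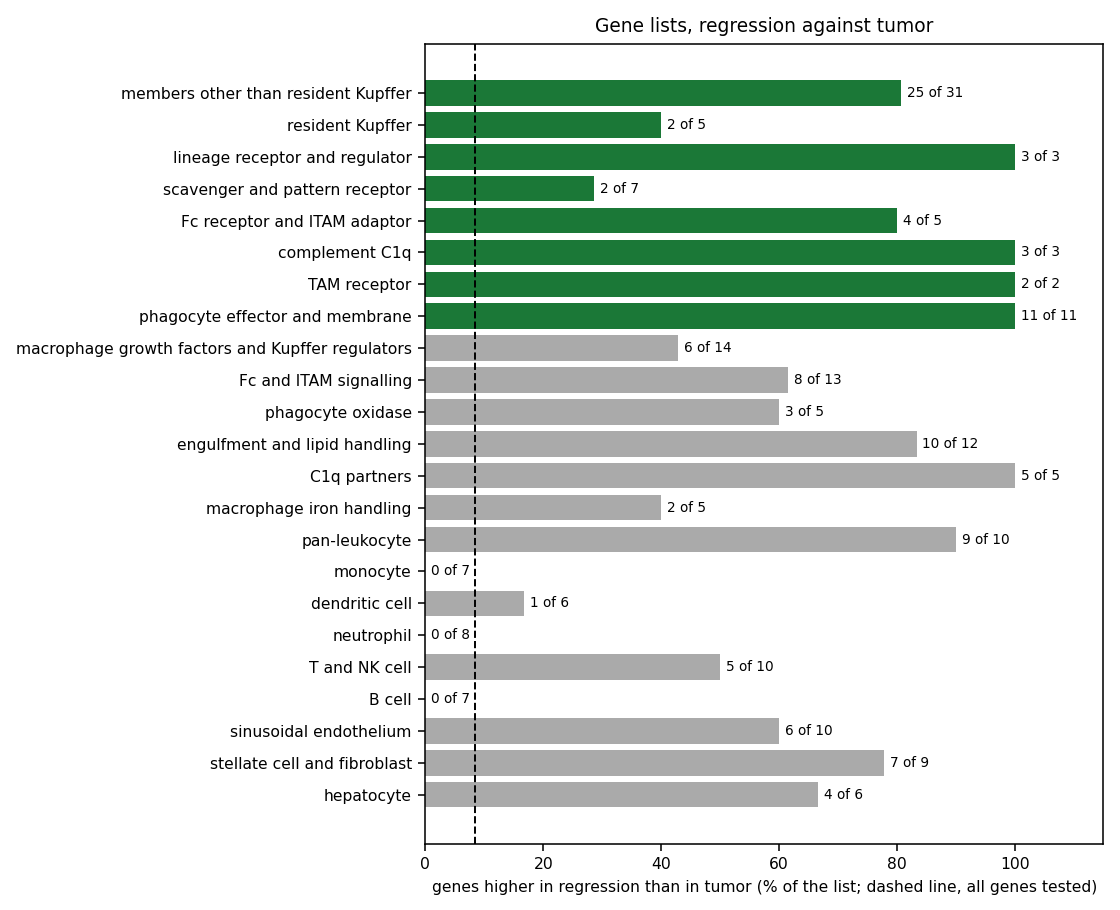
Bars give the percentage of each gene list that was higher in regression than in tumor, with counts at the bars; green bars are the 36 genes by role, grey bars the related and other cell type lists, and the dashed line is the 8.45% of all genes. All 11 phagocyte effector genes were higher against 2 of 5 resident genes and 2 of 7 scavenger receptors, and so were 9 of 10 pan-leukocyte, 7 of 9 stellate cell, 6 of 10 endothelial and 4 of 6 hepatocyte genes.

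Markers of other cell types also moved. Of all genes, 9.38% were higher and 7.01% lower in tumors than in control. In regressing tumors against tumors 8.45% were higher and 8.35% lower. Of 10 pan-leukocyte genes 0 were called by limma in tumors against control (2 higher and 2 lower at an unadjusted p under 0.05) and 9 were higher in regressing tumors than in tumors, and their summed signal, in units of each array's 75th percentile, was 9.57 to 10.4 in controls, 9.16 to 16.7 in tumors and 38.6 to 94.2 in regressing tumors. Of 10 T and NK cell genes 5 were higher in regressing tumors than in tumors (summed signal 3.19 to 3.86 in tumors and 7.37 to 13.5 in regressing tumors), with 4 to 9 of the 10 well above background in tumors. By limma 0 of 8 neutrophil genes, 0 of 7 monocyte genes and 0 of 7 B cell genes tested were called in that comparison (4, 0 and 0 were higher at an unadjusted p under 0.05), and 1 of 6 dendritic cell genes was higher. The monocyte genes had a summed signal of 8.29 to 12.9 in controls, 7.03 to 10.4 in tumors and 8.96 to 28.6 in regressing tumors. The 28.6 came from regression 2 alone, and the next highest regressing tumor read 11.7, within the control range. In tumors 3 to 6 of the 7 were well above background, and in regressing tumors 4 to 5. Ccr2 was well above background on 1 of 4 tumors and 3 of 4 regressing tumors.

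Genes of non-immune cells were called in both comparisons too, with hepatocyte and endothelial calls in tumors all lower. Over all genes the shares were 9.38% higher and 7.01% lower in tumors than in control, and 8.45% higher in regressing tumors than in tumors. Of 9 stellate cell and fibroblast genes 3 were higher and 1 lower in tumors than in control, and 7 were higher in regressing tumors than in tumors (summed signal of the 8 measured on every array 17 to 25.6 in tumors and 50.7 to 179 in regressing tumors). Of 10 endothelial genes 4 were lower in tumors than in control, and 6 were higher in regressing tumors than in tumors (4.04 to 6.05 and 8.83 to 19.8). Of 6 hepatocyte genes 5 were lower in tumors than in control and 4 were higher in regressing tumors than in tumors (69.3 to 274 and 492 to 557, over the 5 measured on every array). The part of these cells in the differences of the macrophage genes was not tested.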

How the data were processed

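RNA had been extracted with a mirVana kit, amplified as whole transcriptome and labelled with Cy3, per the labels' protocols. Scanning and signal extraction used Agilent Feature Extraction 10.5.1.1, per the file headers. The deposited scanner files give a processed signal intensity per spot, background-subtracted by that software per the file headers. The authors' deposited table holds log2 values of the same arrays and served as an alternative only, as how it was scaled is not given in the sources used here.

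The log2 of the processed signal minus the array's 75th percentile was averaged over spots of a probe, leaving out control spots and spots marked as outliers. Probes well above background on at least 3 of 15 arrays were kept (29877 with a symbol). A gene was represented by its passing probe of highest mean. All 4 groups entered 1 limma model (limma 3.58.1, R 4.3.3; 11 residual degrees of freedom), with two-sided tests of 5 comparisons and Benjamini-Hochberg adjustment over 19328 genes per comparison. The procedure was also run on simulated data with independent noise for each gene and shifts in the tumor arrays only. Those data held no slide effect, array quality difference or background floor, so the run cannot speak to these limits.

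The members and lists were chosen with earlier results of these data known. Values on every array are given for the 5 resident genes and for 20 other members called in any comparison, those of lowest adjusted p. Of each other list, 1 to 3 genes of lowest adjusted p were named, and Csf1, Fcgr2b, Cyba and Ccr2 were named after their values were seen. Symbols and promoters came from RefSeq.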

Additional observations from a re-analysis of the deposited data

Results flagged for a closer look

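In 108 groups of 4 arrays (the 36 members in pre-tumor liver, tumors and regressing tumors), 7 held an array that stood far from the other 3 (Dixon's test at the 95% level, which chance meets in about 1 of 20 groups). Regression 1 was the high array in 3 of them: Ms4a6d at 2.45 (next array 0.97), Tyrobp at 6.85 (next 6.02) and Hpgds at 2.03 (next 1.43). Tumor 4 was the low array for Fcer1g at 2.15 (next 2.74) and for Lgals3 at 2.17 (next 2.69). Pre-tumor 3 was the low array for Lgals3 at -1.88 (next 0) and for Trem2 at -1.08 (next 0.38). Regression 1 also had the highest median shift of the 31 members other than the resident genes (3.36).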

How the results depend on the processing

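Of 95 member differences (all those called, and those of resident genes not called outside the pre-tumor comparison) under 29 settings each (27 planned and 2 chosen after seeing the data, namely the dimmest passing probe of a gene and leaving out the 2 arrays of highest and lowest share of spots above background), 2632 of 2755 values kept their direction and side of the threshold, 109 no longer passed, 6 passed newly and 8 reversed. Other members that pass only under an alternative are not among them. Cd86 reversed in tumors against control with the mean of its probes (-0.04) and its dimmest probe (-1.37), and in regressing tumors against control with the latter (-0.27). Vsig4, near 0 in regressing tumors against control, was 0.1 under normexp correction of median spot signals joined to quantile normalization, 0.06 with median centring, and from -0.85 to 0.53 when 1 array was left out (0.09 without control 3, 0.03 without regression 1, 0.53 without regression 4). Median centring left 1 member lower in tumors against control. Leaving out 1 array gave 7 to 13 members higher and 1 to 3 lower in tumors against control, 12 to 14 higher and 2 to 4 lower against pre-tumor liver, 24 to 28 higher in regressing tumors against tumors and 23 to 26 against control. With the replicate number as a block, 12, 14, 27 and 26 members were higher in these comparisons, and Clec4f (adjusted p = 0.0507) and Axl (0.057) lost their call in tumors against control. The numbers share no stated animal or batch: of 21 pairs of same-numbered arrays 11 correlated above 0.1 (range -0.44 to 0.61). Normexp with quantile normalization adds an offset of 50 to every signal, which by arithmetic makes log2 differences of dim genes smaller. Under it the differences of regressing tumors from control went from 4.92 to 1.68 for Hpgds, 3.77 to 0.95 for Axl and 2.67 to 0.43 for Mrc1. That setting called 6 genes higher and 5 lower of all genes in pre-tumor liver against control. Quantile normalization alone kept the calls of Clec4f and Axl in tumors against control and the direction of Vsig4. How much of the changes came from the offset was not tested, nor was the cause of changes under other settings.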

Other observations

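Some genes of T and NK cells (5 of 10 tested) and of stellate cells and fibroblasts (7 of 9) were also higher after 72 hours of regression, where 0 of 7 B cell genes were called by limma (0 at an unadjusted p under 0.05). Of all genes 8.45% were higher in regressing tumors than in tumors. In regressing tumors against tumors the T cell genes Cd3g, a chain of the T cell receptor complex (2 ± 0.3, adjusted p = 0.000339), and Cd2, an adhesion receptor (2.86 ± 0.5, 0.00109), rose, with Cd2 well above background on 1 of 4 tumors. The cytotoxic granule gene Nkg7 rose as well (2.08 ± 0.37, 0.00119). None of the 3 was called in tumors against control.

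Col3a1, a fibrillar collagen, and Pdgfrb, a growth factor receptor of stellate cells, were higher in tumors than in control (3.11 ± 0.46, adjusted p = 0.000199, and 2.44 ± 0.52, 0.00347) and higher again in regressing tumors than in tumors (2.61 ± 0.43, 0.000678, and 2.66 ± 0.48, 0.00123). Lum, a matrix proteoglycan, was not well above background on any tumor, and regressing tumors were at least 6.9-fold above tumors (adjusted p = 0.000106). Endothelial Cdh5, a junction protein (2.24 ± 0.33, 0.000333), and Tek, a receptor for angiopoietins (2.24 ± 0.34, 0.000408), rose in regressing tumors, with neither called in tumors against control.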
